A study of Mus musculus with 6 samples.

Results

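Genes of protein folding, glycoprotein quality control and the unfolded protein response in the endoplasmic reticulum (ER) were followed in mouse 3T3 cells, an established line of fibroblasts, after depletion of the SAFB proteins. The set was a list of 36 genes taken by symbol from the 54532 genes in the files, and 35 of them had the 10 or more reads over 6 libraries needed for a test. The groups were 3 SAFB KD libraries, from Flp-In 3T3 cells in which siRNAs targeted Safb, Safb2 and Sltm together, and 3 control libraries, from cells given a control siRNA. Cells were transfected, given the same siRNA again the next day and harvested on the third day. Poly(A)+ RNA was sequenced, and nothing in the sources used here distinguishes the groups apart from the siRNA. The siRNA sequences were not used here, and 1 siRNA per gene cannot separate an effect of the target from one of the oligonucleotide. The replicates are called biological in the series text, but separate cultures are not described, so p-values measure the spread between these libraries.

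Secreted and membrane proteins fold in the ER. There the chaperone BiP (Hspa5) and its cofactors hold exposed hydrophobic stretches, calnexin and calreticulin hold glycoproteins by a glucose on their sugar chain, and disulfide isomerases pair cysteines. Proteins that fail to fold are moved back to the cytosol and degraded (ER-associated degradation, ERAD). The unfolded protein response is read by the membrane sensors IRE1 (Ern1), PERK (Eif2ak3) and ATF6. ATF6 and spliced XBP1 are known to raise chaperone and ERAD genes, while PERK lowers translation and raises ATF4 and its targets. Fibroblasts use this machinery to make collagen and other matrix proteins.

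Libraries held 33323307 to 53441129 counts, and on the first principal component (44.9% of the variance) SAFB KD libraries lay apart from controls. Control 3 lay apart from the other controls on the second component (16.3%). The targets of the siRNAs fell in SAFB KD. Safb had 46.6 ± 2.01 CPM in SAFB KD and 93.7 ± 3.08 CPM in control (SD, n = 3 per group, as for all means here; CPM are counts per library size, scaled by TMM). Safb2 had 30.0 ± 0.312 CPM in SAFB KD and 46.9 ± 1.79 CPM in control, and Sltm 61.6 ± 0.515 CPM in SAFB KD and 100.2 ± 4.81 CPM in control. The log2 fold changes were -1.01, -0.64 and -0.70. Fibroblast markers were present at 17265 to 17735 summed CPM in SAFB KD and 18420 to 20345 CPM in control. Of these, 6 of the 7 were called lower, Pdgfrb the most (-1.13). For comparison, 20.1% of all tested genes were called lower, and 29.8% of those at a mean of 10 CPM or more. Epithelial markers summed to at most 0.455 CPM, with Epcam and Krt18 at 0 reads. Leukocyte markers summed to 8.47 to 10.5 CPM in SAFB KD and 6.28 to 6.72 CPM in control, and Cd68 among them was called higher. Endothelial markers summed to 9.32 to 10.3 CPM in SAFB KD and 7.89 to 8.32 CPM in control, with Kdr at 0 reads and Pecam1 called higher (0.72, adjusted p = 0.0187). The part of these marker changes in the results was not tested.

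The set as a whole moved little and in both directions. Of 35 tested genes, 6 were called higher and 14 lower at an adjusted p under 0.05, and 15 were not called. The genes called higher were Hyou1, Dnajb9, Mogs, Tmx1, Herpud1 and Atf6. Those called lower were Dnajb11, Dnajc3, Creld2, Manf, Calr, Uggt1, Uggt2, Pdia3, Tmx3, Edem1, Edem3, Syvn1, Xbp1 and Eif2ak3. In all, 57.1% of the set was called, against 41.5% of all 19452 genes tested. It was 17.1% higher and 40.0% lower in the set, against 21.4% called higher and 20.1% called lower among all genes. Every tested member lay above 10 CPM, and at a mean of 10 CPM or more 65.7% of 9082 genes were called (35.9% higher and 29.8% lower). The share of the set that was called was thus above that of all genes and below that of genes over this level. Without control 3, the library that stood apart, 5 members were called higher and 16 lower.

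Changes were small. The median log2 fold change was -0.04 over the set, and no member passed 1 in size. Such changes were rare at this level, with 108 of 9082 genes at 10 CPM or more, against 2445 of all 19452 tested genes. The median size of change was 0.090 on the log2 scale in the set, 0.171 in genes of 10 CPM or more and 0.273 in all tested genes. In 18 members all 3 SAFB KD libraries lay below all controls, in 7 they lay above, and in 10 the groups overlapped. The groups did not overlap in 49.0% of all tested genes and in 70.6% of those at 10 CPM or more. With both directions together, the set's count was close to that of genes over this level. The split by direction differed. Of 9082 genes at 10 CPM or more, SAFB KD libraries lay above all controls in 3497 and below in 2919, while in the set more lay below. Summed over the set, SAFB KD libraries held 11518 to 11642 CPM and controls 12167 to 12236 CPM. Abundant genes weigh most in these sums, and Calr alone averaged 953 CPM in SAFB KD and 1293 CPM in control. In bulk RNA, fewer cells with a transcript and less of it per cell cannot be told apart.

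**Figure D1:**
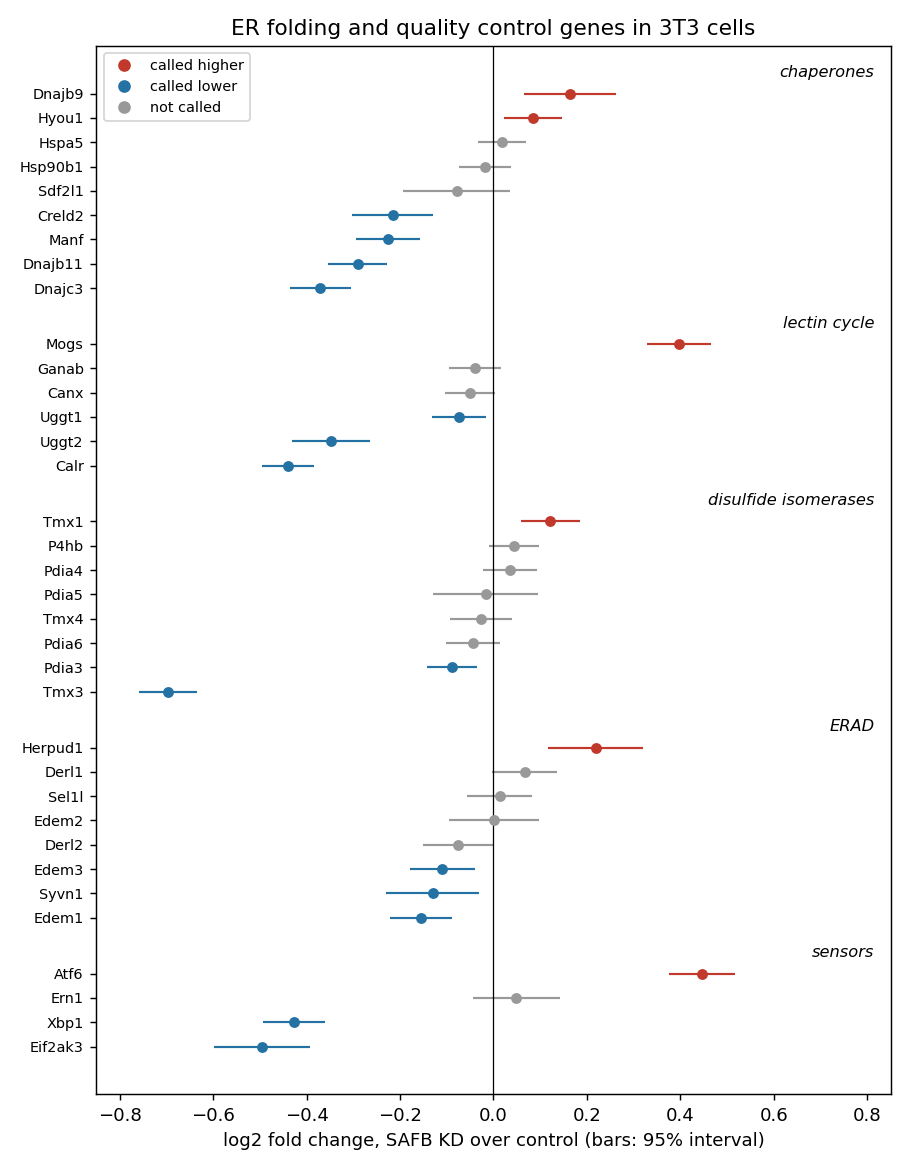
Log2 fold change (SAFB KD over control) of the 35 tested genes by role, with bars for the approximate 95% interval; colour shows whether the gene was called higher, called lower or not called. The values span -0.70 (Tmx3) to 0.45 (Atf6), and all 5 roles hold genes on both sides of 0.

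Levels per length place the abundant folding machinery far above the sensors. In control libraries Calr stood highest at 449 CPM per kb of exon, followed by Hsp90b1 (436), Pdia3 (427), Hspa5 (422), P4hb (332) and Canx (270 CPM per kb). In SAFB KD libraries the order at the top was Hsp90b1 (431), Hspa5 (427), Pdia3 (401), P4hb (342) and Calr (331 CPM per kb). The order within a group is not firm among neighbours. The gaps between Calr and Hsp90b1 in control, and between Hsp90b1 and Hspa5 in both groups, were within the spread of their libraries, and in control 3 Hsp90b1 (451) was above Calr (437 CPM per kb). Over the length of the longest transcript, in place of all exons, Calr stood at 436 CPM per kb in SAFB KD, above P4hb (342). At the low end were Uggt2 (3.23 in SAFB KD and 4.12 CPM per kb in control), Eif2ak3 (4.12 in SAFB KD and 5.79 CPM per kb in control) and Ern1 (4.76 in SAFB KD and 4.60 CPM per kb in control). Their order depends on the length used. Over the longest transcript Uggt2 had 6.40 CPM per kb in SAFB KD and 8.16 in control, above Eif2ak3 (5.50 in SAFB KD and 7.74 in control) and Ern1 (5.60 in SAFB KD and 5.41 in control). Derl3, a derlin, had 0 reads in every library, which allows a level of up to 0.0561 to 0.0900 CPM (3 counts per library, counting error only).

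**Figure D2:**
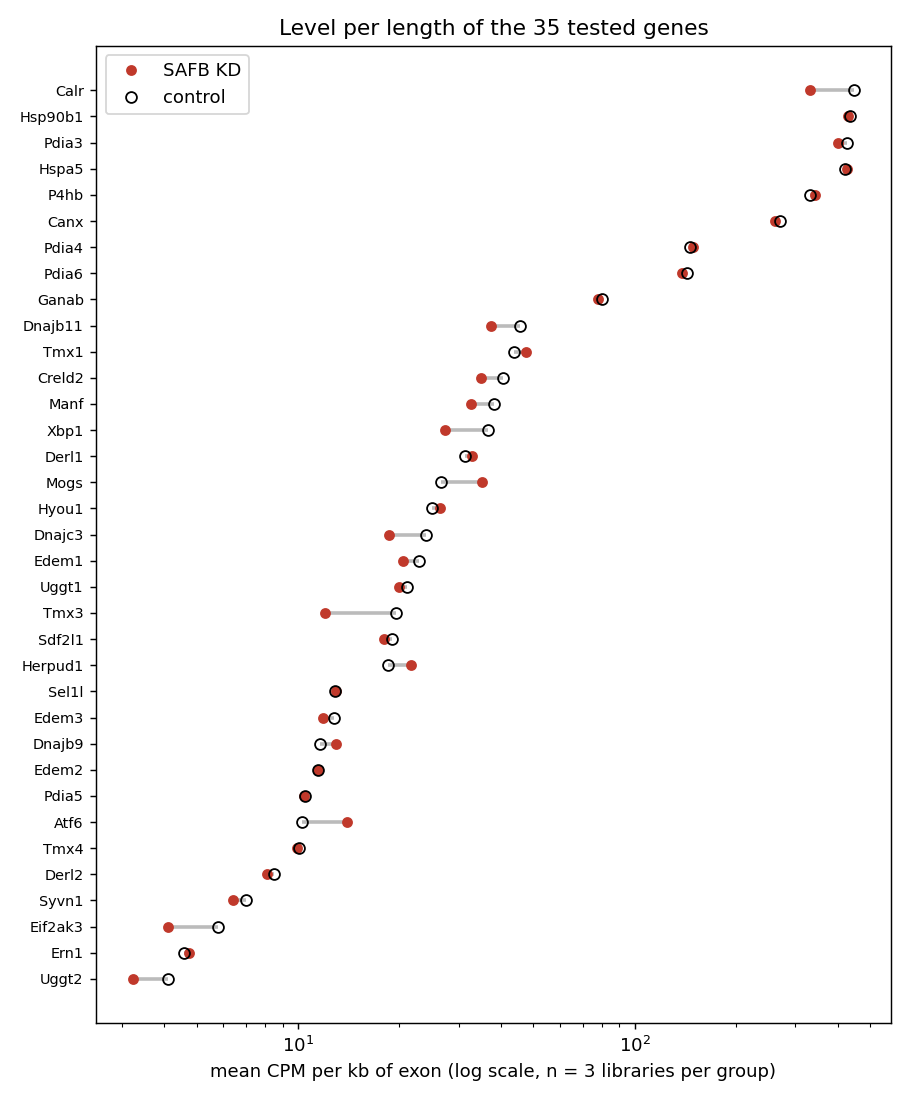
Mean level per kb of exon (log scale) of the 35 tested genes in SAFB KD (filled red) and control (open black), 3 libraries per group, in the order of the control level. The 2 points of most genes nearly coincide; Calr, Tmx3, Xbp1, Dnajc3 and Eif2ak3 lie lower in SAFB KD, and Mogs and Atf6 lie higher.

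The main chaperones did not pass the test, and the cofactors of BiP moved both ways. Hspa5, which encodes BiP, the Hsp70 of the ER (chr2:34771970-34777547 in GRCm38, plus strand), had 1802, 1813 and 1801 CPM in SAFB KD 1 to 3, against 1766, 1766 and 1815 CPM in control 1 to 3. The groups overlapped. The log2 fold change was 0.02 with a 95% interval of -0.03 to 0.07 (adjusted p = 0.645), so a rise of more than 0.07 lay outside the interval. Hsp90b1, the Hsp90 of the ER (GRP94), had 1762, 1699 and 1749 CPM in SAFB KD, against 1699, 1756 and 1819 CPM in control (-0.02, interval -0.07 to 0.04, adjusted p = 0.679). Hyou1, a large Hsp70 that exchanges the nucleotide of BiP, averaged 191 ± 2.99 CPM in SAFB KD and 180 ± 6.47 CPM in control. Its log2 fold change of 0.08 (SE 0.032, adjusted p = 0.0313) lost its call under 9 of 13 alternative settings (adjusted p up to 0.318), among them leaving out control 2, control 3 or any SAFB KD library.

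The J-domain proteins, which recruit BiP to its clients, went in both directions. Dnajc3 (p58IPK) had 95.01, 95.3 and 96.7 CPM in SAFB KD, against 123, 122 and 126 CPM in control. Every SAFB KD library was below every control, and the log2 fold change was -0.37 (SE 0.033, adjusted p = 2.78e-12). Dnajb11 (ERdj3), which binds unfolded proteins in the ER lumen, fell by a similar amount, to 121 ± 2.60 CPM in SAFB KD, against 148 ± 1.70 CPM in control (-0.29, SE 0.032, adjusted p = 7.09e-10). Its partner Sdf2l1 averaged 20.01 ± 0.617 CPM in SAFB KD and 21.1 ± 0.136 CPM in control and was not called (adjusted p = 0.307). Dnajb9 (ERdj4), a J-protein that also binds IRE1, had 33.0, 32.6 and 33.8 CPM in SAFB KD, against 29.4, 30.6 and 28.7 CPM in control. That is a rise of 0.16 (SE 0.050, adjusted p = 0.00697). Creld2 and Manf, small secreted proteins known to be induced by ER stress, both fell. Creld2 averaged 47.7 ± 2.74 CPM in SAFB KD and 55.4 ± 1.72 CPM in control (-0.22, adjusted p = 9.36e-05). Manf averaged 115 ± 4.85 CPM in SAFB KD and 134 ± 4.30 CPM in control (-0.22, adjusted p = 1.01e-06). The annotated span of Manf holds the gene Rbm15b on the same strand, which also fell (-0.42), and the division of reads between the pair is uncertain.

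In the lectin cycle, glucosidases trim the sugar chain of a new glycoprotein, calnexin and calreticulin hold it, and the glucosyltransferases UGGT1 and UGGT2 put a glucose back on chains of misfolded proteins. The first enzyme of the cycle rose and both glucosyltransferases fell. Mogs (glucosidase I, chr6:83115496-83118898, plus strand) had 99.2, 103.8 and 101.6 CPM in SAFB KD, against 77.2, 78.7 and 75.4 CPM in control. The groups were well apart, with a log2 fold change of 0.40 (SE 0.035, adjusted p = 2.10e-12). Ganab, the catalytic subunit of glucosidase II, averaged 425 ± 3.65 CPM in SAFB KD and 436 ± 3.69 CPM in control and was not called (-0.04, adjusted p = 0.288).

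The soluble and the membrane lectin differed. Calr (calreticulin, chr8:84841850-84846934, minus strand) had 957, 933 and 968 CPM in SAFB KD, against 1330, 1289 and 1258 CPM in control. The groups were far apart, and the level fell by 26.3% in the fit, or by 0.44 on the log2 scale (SE 0.028, adjusted p = 3.06e-16). Canx (calnexin), its relative in the membrane, had 1251, 1226 and 1199 CPM in SAFB KD, against 1276, 1276 and 1254 CPM in control. All SAFB KD libraries were lower here too, but the change of -0.05 (interval -0.10 to 0.00, adjusted p = 0.143) was not called. The difference between Calr and Canx was not tested. Canx was called lower in 4 of 13 alternative settings, among them without control 3 (-0.07, adjusted p = 0.038).

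Uggt2 (chr14:118985039-119099430, minus strand) had 40.0, 42.3 and 41.7 CPM in SAFB KD, against 52.0, 52.4 and 53.6 CPM in control. Its log2 fold change was -0.35 (SE 0.043, adjusted p = 9.35e-09). Uggt1 averaged 257 ± 1.57 CPM in SAFB KD and 270 ± 3.49 CPM in control (-0.07, SE 0.030, adjusted p = 0.0428), and lost its call under 5 of 13 alternative settings (adjusted p up to 0.114), among them leaving out control 2 or any SAFB KD library. Per length, Uggt2 stood at 0.156 to 0.167 of Uggt1 in SAFB KD libraries and at 0.192 to 0.202 of Uggt1 in controls. With the longest transcripts the ratio was 0.217 to 0.232 in SAFB KD and 0.267 to 0.282 in controls. Uggt2 is among the hosts of intronic GA-rich repeats that the study describes on these cells, so its fall is not independent evidence for such hosts. Its neighbour is Dnajc3, which lies on the opposite strand and ends 3341 bases from the end of Uggt2, and both genes were lower in SAFB KD.

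Most disulfide isomerases did not pass the test. The 8 genes held 1 called higher, 2 called lower and 5 not called. That is 37.5% called, against 41.5% of all tested genes and 65.7% of those at 10 CPM or more. P4hb, the classical protein disulfide isomerase and a subunit of collagen prolyl 4-hydroxylase, had 985, 970 and 982 CPM in SAFB KD, against 949, 947 and 953 CPM in control. All SAFB KD libraries were higher, but by 0.04 only (interval -0.01 to 0.10, adjusted p = 0.206). Pdia3 (ERp57), which works with calnexin and calreticulin on glycoproteins, averaged 1259 ± 8.80 CPM in SAFB KD and 1340 ± 25.6 CPM in control and fell by 0.09 (SE 0.027, adjusted p = 0.00669). Pdia4, Pdia5 and Pdia6, other soluble isomerases, had log2 fold changes of 0.04, -0.02 and -0.04, none called, though Pdia6 was called lower without control 1 (-0.07, adjusted p = 0.0418).

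The transmembrane thioredoxins of the family spread widest. Tmx3 (chromosome 18, 90510154 to 90543267, plus strand) had 119, 118 and 122 CPM in SAFB KD, against 192, 197 and 194 CPM in control. This was the largest change in the set, a fall of 0.70 (SE 0.031, adjusted p = 4.87e-21), or by 38.3% in the fit. Among all tested genes, which include genes of low counts, 20.5% changed by more in size. This share was not computed for genes at 10 CPM or more. Their median size of change was smaller, at 0.171 against 0.273 in all tested genes. Tmx1 averaged 157 ± 3.54 CPM in SAFB KD and 144 ± 4.72 CPM in control, a rise of 0.12 (SE 0.033, adjusted p = 0.00217). Tmx4 averaged 108 ± 1.75 CPM in SAFB KD and 110 ± 2.59 CPM in control and was not called (-0.03). Per length, Tmx3 stood at 0.251 to 0.256 of Tmx1 in SAFB KD libraries and at 0.439 to 0.462 of Tmx1 in controls. With the longest transcripts the ratio was 0.457 to 0.467 in SAFB KD and 0.801 to 0.842 in controls. Tmx3 too is described in the study as a host of intronic GA-rich repeats on these cells. Its span also holds an annotated processed pseudogene on the same strand, AC163277.1, which was not tested. Without Uggt2 and Tmx3, the set had 6 genes called higher and 12 called lower of 33. That is 54.5% called, against 41.5% of all tested genes and 65.7% of those at 10 CPM or more. The median log2 fold change was then -0.04.

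ERAD genes changed by 0.22 or less on the log2 scale. Of the 8 tested, 1 was called higher, 3 lower and 4 not called. That is 50% called, against 41.5% of all tested genes and 65.7% of those at 10 CPM or more. Herpud1 (HERP), a membrane protein that organizes the ubiquitin ligase complex, had 48.7, 52.3 and 50.5 CPM in SAFB KD, against 47.7, 43.8 and 38.4 CPM in control. The groups did not overlap, but SAFB KD 1 lay close to control 1, and the controls had the largest coefficient of variation among the members (10.8%). The log2 fold change was 0.22 (SE 0.052, adjusted p = 0.00058), between 0.13 and 0.29 over the 13 alternatives, and the call held in each. Edem1 and Edem3, which help to trim mannose from glycoproteins bound for degradation, were lower. Edem1 averaged 133 ± 5.75 CPM in SAFB KD and 148 ± 0.913 CPM in control (-0.16, adjusted p = 0.000176). Edem3 averaged 75.9 ± 0.231 CPM in SAFB KD and 81.9 ± 2.21 CPM in control (-0.11, adjusted p = 0.0116). Edem2 averaged 39.6 ± 1.83 CPM in SAFB KD and 39.6 ± 2.26 CPM in control.

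Of the ubiquitin ligase pair at the core of ERAD, Syvn1 (HRD1, the ligase) averaged 31.1 ± 0.869 CPM in SAFB KD and 34.0 ± 1.67 CPM in control. It was called lower (-0.13, SE 0.051, adjusted p = 0.0369) but lost the call under 5 of 13 alternatives (adjusted p up to 0.146), among them leaving out control 1, control 2, SAFB KD 2 or SAFB KD 3. Its adaptor Sel1l averaged 111 ± 1.67 CPM in SAFB KD and 110 ± 5.58 CPM in control (0.01, interval -0.06 to 0.08, adjusted p = 0.81). Derl1 and Derl2, derlins of the membrane channel, had log2 fold changes of 0.07 and -0.08, neither called. Without SAFB KD 1 Derl1 was called higher (0.09, adjusted p = 0.0395), and without control 3 Derl2 was called lower (-0.11, adjusted p = 0.0215).

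The sensors moved apart. Atf6 (chr1:170704674-170867771, minus strand), a membrane-bound transcription factor released by cleavage in the Golgi, had 132, 132 and 124 CPM in SAFB KD, against 95.1, 90.8 and 98.6 CPM in control. It rose by 0.45 (SE 0.036, adjusted p = 1.63e-13), the largest rise in the set. Eif2ak3 (PERK, chr6:70844515-70905245, plus strand), the kinase that phosphorylates eIF2alpha, had 25.6, 25.3 and 23.5 CPM in SAFB KD, against 35.7, 33.9 and 35.2 CPM in control. It fell by 0.50 (SE 0.052, adjusted p = 2.36e-10), or by 29.1% in the fit. Ern1 (IRE1), the kinase and ribonuclease, had 39.3, 39.4 and 38.0 CPM in SAFB KD, against 38.2, 35.96 and 38.5 CPM in control. Its groups overlapped, and the change of 0.05 (interval -0.04 to 0.14, adjusted p = 0.45) was not called. These are levels of sensor RNA, which do not measure sensor activity.

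Xbp1 (chr11:5520659-5525893, plus strand), the transcription factor whose RNA IRE1 splices, had 86.5, 88.7 and 90.5 CPM in SAFB KD, against 118, 120 and 120 CPM in control. The groups were far apart, with a log2 fold change of -0.43 (SE 0.034, adjusted p = 9.85e-14). IRE1 removes 26 bases from the RNA, which shifts the reading frame and gives the active factor. The stretch lies in exon 4 at chr11:5524279-5524304, given here in capitals with 12 bases on each side (chr11:5524267-5524316) from the GENCODE transcript in GRCm38.
Xbp1: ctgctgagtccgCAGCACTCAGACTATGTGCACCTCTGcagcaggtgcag
Counts per gene do not separate RNA with and without these bases, so IRE1 splicing was not analysed here, and the fall is that of both forms together.

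**Figure D3:**
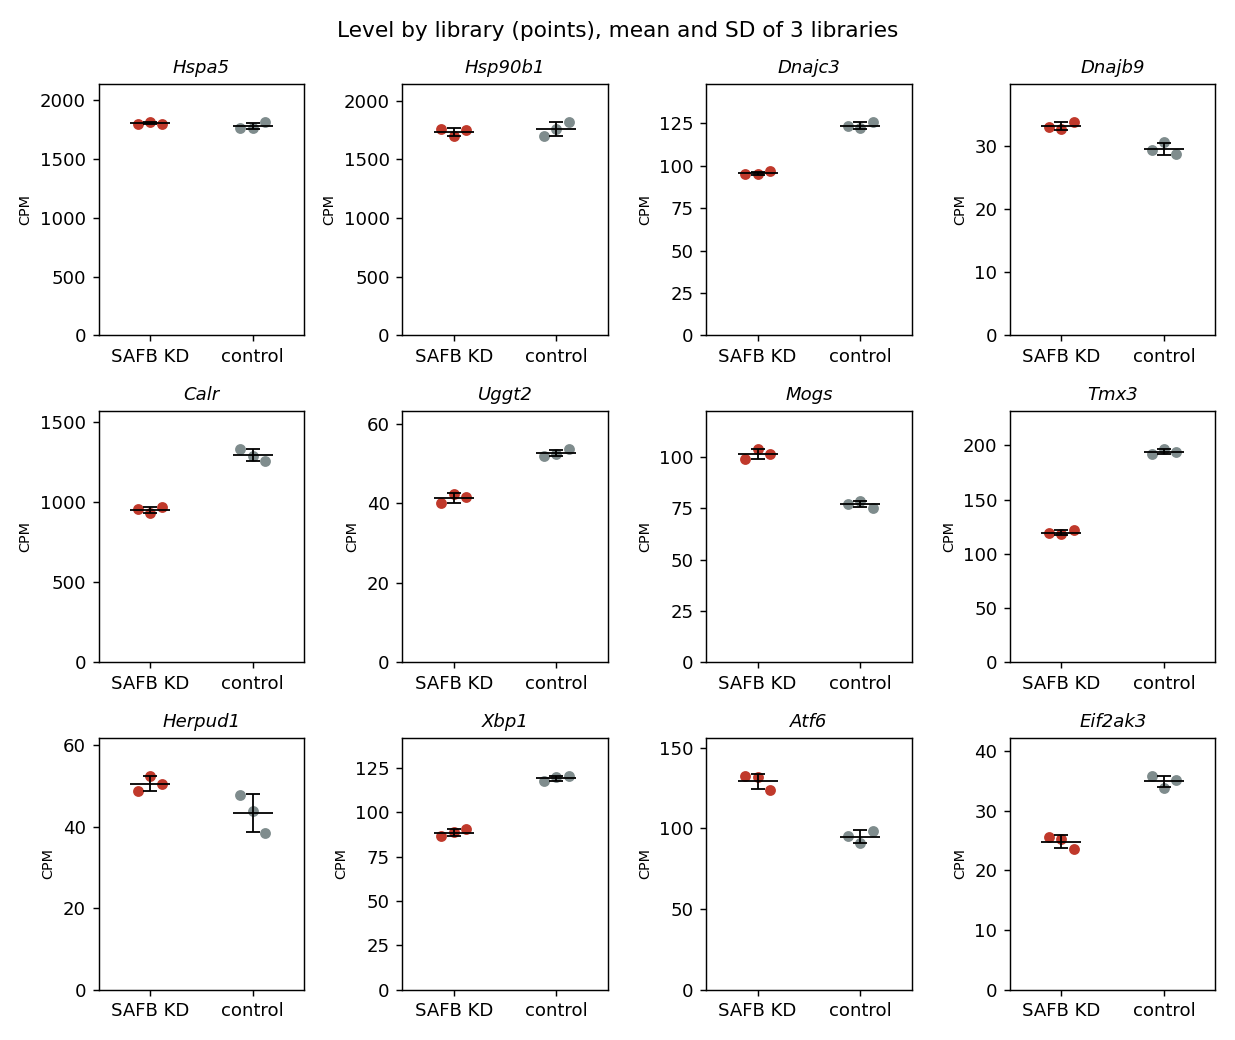
Level in CPM (linear axes from 0) of 12 genes of the set, with points for libraries 1 to 3 from left to right, SAFB KD at left and control at right, and bars for the mean and SD of 3 libraries. Hspa5 and Hsp90b1 overlap between groups; Dnajc3, Calr, Uggt2, Tmx3, Xbp1 and Eif2ak3 lie lower in SAFB KD and Dnajb9, Mogs, Herpud1 and Atf6 higher, with no overlap.

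Promoter sequence was described to see what members of the set share. The ER stress response element (ERSE) is CCAAT, 9 bases and CCACG. NF-Y is known to bind its first part and ATF6 or XBP1 its second. It was searched on both strands of RefSeq windows (GRCm38.p6) that run 250 bases before to 50 bases after each start site. Of 36 members, 31 had a window. Those without were Hyou1 and Atf6 (called higher), Manf and Tmx3 (called lower) and Derl1 (not called). The element stood in 9 of the 31 (29.0%), namely Calr, Canx, Creld2, Derl3, Dnajc3, Hsp90b1, Hspa5, Pdia6 and Syvn1, and in 37 of all 27025 genes with a window (0.137%). Many members are textbook ATF6 targets, so this share is background to the list and no result of the knockdown. The log2 fold changes of the tested members with the element ran from -0.44 to 0.02. These members are shown here and below, each read in the direction of its gene with the element in capitals. Calr and Creld2 hold it on the opposite strand, where it reads CGTGG, 9 bases and ATTGG.
Hspa5, chr2:34772015-34772053: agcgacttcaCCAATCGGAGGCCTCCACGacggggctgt
Dnajc3, chr14:118937817-118937855: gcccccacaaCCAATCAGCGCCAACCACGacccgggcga
Calr, chr8:84847065-84847103: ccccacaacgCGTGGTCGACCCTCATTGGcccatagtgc
Canx, chr11:50325790-50325828: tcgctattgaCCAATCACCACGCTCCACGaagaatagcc
Creld2, chr15:88819510-88819548: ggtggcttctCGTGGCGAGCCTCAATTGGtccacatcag
Pdia6, chr12:17266481-17266519: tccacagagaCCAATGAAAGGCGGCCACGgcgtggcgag
Syvn1, chr19:6046522-6046560: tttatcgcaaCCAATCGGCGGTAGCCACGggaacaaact
Of the 8 tested members with the element, 0 were called higher by edgeR (also 0 at an unadjusted p under 0.05, by DESeq2 and by limma-voom), 4 were called lower (Calr, Dnajc3, Creld2 and Syvn1) and 4 were not called (Hspa5, Hsp90b1, Canx and Pdia6). Their median log2 fold change was -0.09. It was -0.03 in the 22 members with a window and no element, of which 4 were called higher and 8 lower. Among all tested genes 21.4% were called higher and 20.1% lower, and among those at 10 CPM or more 35.9% and 29.8%. Hspa5 and Dnajc3 both carry a match of the element (65 and 105 bases before the start), with log2 fold changes of 0.02 and -0.37. Their windows differ otherwise, as the XBP1-binding letters TGACGTG stood in Hspa5 and not in Dnajc3. Only exact matches were searched.

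Hsp90b1 has 2 matches, the first at 212 bases and the second at 107 bases before the start, facing opposite ways. They are shown in capitals in one run from chr10:86705523-86705666 (minus strand).
Hsp90b1: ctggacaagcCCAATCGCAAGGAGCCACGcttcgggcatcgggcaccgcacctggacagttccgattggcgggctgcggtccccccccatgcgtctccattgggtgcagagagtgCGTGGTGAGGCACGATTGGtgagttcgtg
This gene, among the most abundant per length, was not called (-0.02).

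Herpud1 carries other elements. ERSE-II, which is ATTGG, 1 base and CCACG, stood in 2 members (Herpud1 and Dnajb11) and 12 of all genes (0.0444%). The C/EBP-ATF response element (CARE, searched as TGATGNAAN on both strands), through which ATF4 is known to act, stood in 1 member, Herpud1, and in 1215 of all genes (4.496%). The run from chr8:94386306-94386397 (plus strand) shows CARE, on the opposite strand, and then ERSE-II in capitals.
Herpud1: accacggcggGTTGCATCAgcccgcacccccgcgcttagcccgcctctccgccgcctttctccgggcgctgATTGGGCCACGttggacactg
Herpud1, which carries both, was called higher (0.22), and Dnajb11, which carries ERSE-II, was called lower (-0.29). The XBP1-binding letters TGACGTG stood in Hspa5 and Mogs (6.45% of members and 2.22% of all genes).

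The remaining genes of the pathway were taken as further lists and also moved both ways. For comparison, 41.5% of all tested genes were called, and 65.7% of those at a mean of 10 CPM or more. Of 23 other ER chaperones and cofactors tested, 6 were called higher and 8 lower (60.9% called), with a median log2 fold change of -0.05. Fkbp14, a prolyl isomerase for collagen, fell the most, with 17.2 ± 0.857 CPM in SAFB KD and 32.7 ± 0.257 CPM in control (-0.93, adjusted p = 4.31e-17). Malectin (Mlec) fell by 0.29 and the prolyl isomerase Fkbp9 rose by 0.24. Of 12 other oxidoreductases, 3 were called higher and 3 lower (50% called, median -0.04). Ero1a, the oxidase that reoxidizes P4hb and is known to respond to ATF4 and CHOP and to hypoxia, stood at 276, 281 and 271 CPM in SAFB KD, against 112, 108 and 105 CPM in control. This rise of 1.35 (SE 0.032, adjusted p = 5.28e-30) was larger than any change in the set, and P4hb itself was not called. Txndc11 (-0.46) and Txndc5 (-0.19) were lower.

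Of 21 other ERAD genes, 8 were called higher and 8 lower, with a median of 0.06. That is 76.2% called, against 41.5% of all tested genes and 65.7% of those at 10 CPM or more. Man1b1, an ER mannosidase (-0.45), Selenos, a partner of derlins (-0.47), and Erlec1, a lectin (-0.30), had the smallest adjusted p, and each was a fall. Rises in the list reached 0.34. Translocon and signal peptidase genes, which bring proteins into the ER, had 5 called higher and 9 lower of 16 (87.5% called, median -0.10). Ssr3 (-0.28) and Sec61a1 (-0.25) fell, and Ssr4 rose (0.22). Of 11 oligosaccharyltransferase subunits, 1 was called higher (Tusc3, 0.16) and 2 lower (Ostc, -0.17, and Stt3a, -0.15). That is 27.3% called, with a median of -0.01.

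The proteases that cut ATF6 were lower. They belong to a list of 7 other sensors, factors related to them and processing genes, with a median log2 fold change of -0.26. Of the list, 1 gene was called higher (Rtcb, 0.28) and 5 lower. The shares were 21.4% and 20.1% among all tested genes, and 35.9% and 29.8% among those at 10 CPM or more. Mbtps1, the site-1 protease, fell by 0.26 (adjusted p = 1.19e-08). Mbtps1 and Rtcb were named after their values were seen. Mbtps2, the site-2 protease that cuts ATF6 in the membrane, had 30.2, 32.1 and 29.6 CPM in SAFB KD, against 72.3, 70.4 and 69.6 CPM in control. It fell by 1.21 (SE 0.044, adjusted p = 4.16e-24), while Atf6 rose. Mbtps2 is a gene that the study describes on these cells as a host of a retrogene, so its fall is not independent evidence of a change in ATF6 processing. Creb3l1 and Creb3l2, membrane-bound factors related to ATF6 that are known for secretory genes in bone and cartilage, fell by 0.89 and 0.43.

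The PERK-ATF4 list went the other way from PERK itself. Of its 16 genes, 13 were called higher (81.25%) and 2 lower (12.5%). The shares were 21.4% and 20.1% among all tested genes, and 35.9% and 29.8% among those at 10 CPM or more. The median log2 fold change of the list was 0.59, against 0.01 over all tested genes and -0.04 over the set. This list was chosen with earlier results of these data known. Trib3, a pseudokinase, had 86.1, 98.4 and 87.8 CPM in SAFB KD, against 27.7, 25.2 and 23.9 CPM in control (1.82, SE 0.050, adjusted p = 4.45e-28). Asns, asparagine synthetase, had 409, 440 and 423 CPM in SAFB KD, against 251, 242 and 233 CPM in control (0.81, adjusted p = 9.85e-23). Nupr1, a stress-induced nuclear protein, averaged 61.6 ± 1.84 CPM in SAFB KD and 28.7 ± 1.13 CPM in control (1.10, adjusted p = 3.74e-22). In each of these genes all SAFB KD libraries were above all controls. Atf4 (0.54) and Ddit3 (CHOP, 1.22), named after their values were seen, were also called higher. Other eIF2alpha kinases act on the same genes in response to amino acid lack, haem lack or double-stranded RNA. Of these, Eif2ak4 (GCN2) rose (0.27), Eif2ak1 (HRI) fell (-0.14) and Eif2ak2 (PKR) was not called (0.08), all also named after their values were seen.

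**Figure D4:**
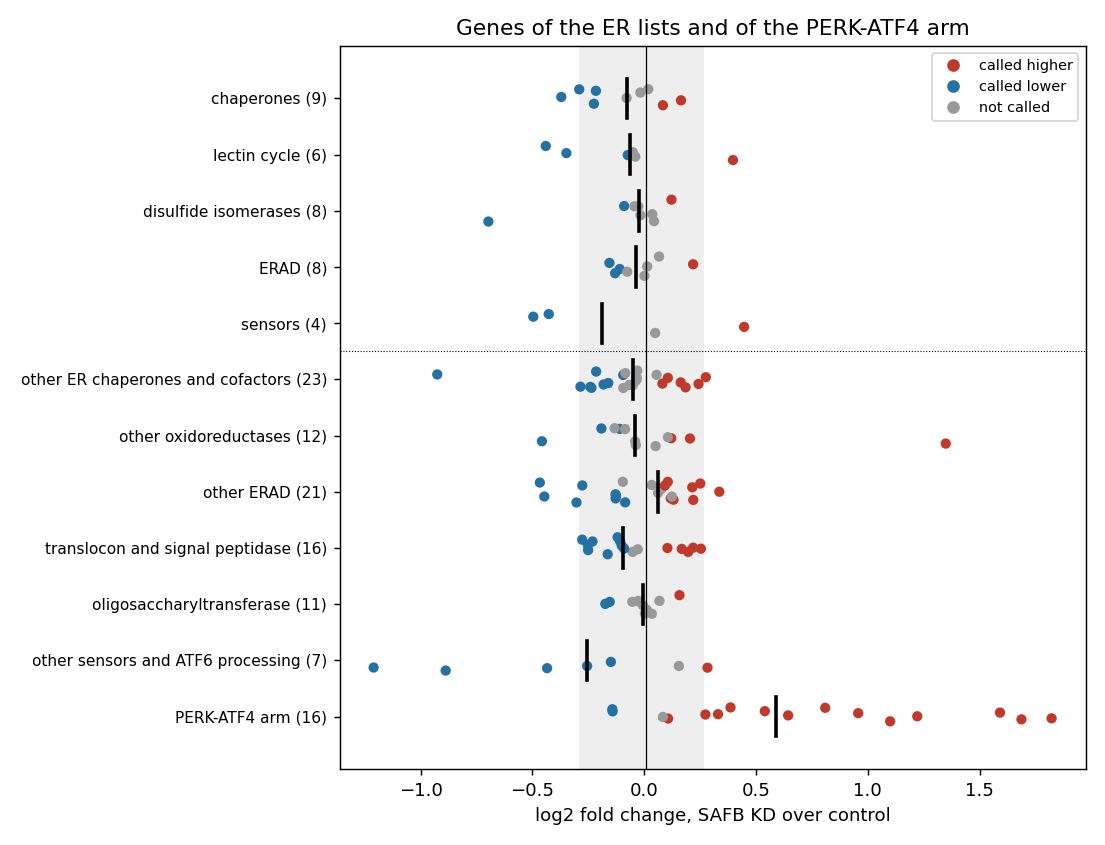
Log2 fold change (SAFB KD over control) of the tested genes in the 5 roles of the set (above the dotted line) and in 7 further lists (below), with the number tested in brackets; thick bars are list medians, the thin line the median and the grey band the quartiles of all tested genes (-0.29 to 0.26). The PERK-ATF4 list has its median at 0.59, outside the band, and the roles of the set have medians between -0.19 and -0.02.

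By sequence, the PERK-ATF4 list also differed from the set. CARE stood in 5 of its 15 genes with a window, against 1 of 31 in the set, and ERSE stood in 0 of 15 against 9 of 31. Many genes of this list are known ATF4 targets, and many members are ATF6 targets. These shares are thus background to how the lists were made and no result of the knockdown. Asns and Nupr1 are shown beside Herpud1, with CARE in capitals, on the gene's own strand in Asns and on the opposite strand in Nupr1.
Asns, chr6:7693214-7693242: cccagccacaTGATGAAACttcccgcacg
Nupr1, chr7:126625563-126625591: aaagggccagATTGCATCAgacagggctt
Of the genes in the set, only Herpud1 had a match of these letters in its window, and a match is a description of letters, not of binding.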

How the data were processed

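The authors trimmed the reads, aligned them to GRCm38 in repeated passes with STAR 2.7.9a, and deposited raw read counts per gene, 1 library per file, with no scaling. That the column holds the reverse-stranded gene counts of the aligner is inferred from the methods. Reads shared by overlapping genes are left out by such counting. The submitters' processing notes also name deepTools 3.5.1. Of 54532 genes, 26546 had no read in any library. Of the identifiers, 54495 matched GENCODE vM21 (GRCm38), which gave symbols, positions and exon lengths, and 37 did not. Genes with under 10 reads over 6 libraries were dropped, which left 19452.

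Groups came from the sample titles. Tests used edgeR 4.0.16 by quasi-likelihood (R 4.3.3, TMM, no covariate, 2-sided, Benjamini-Hochberg over all tested genes, called at an adjusted p under 0.05). The SE of a log2 fold change is set so that the change over it matches the test, and 95% intervals follow from it. The biological coefficient of variation was 3.49%. No replicate pair was a repeat of 1 library, since chi-square over its degrees of freedom was 4.18 or more for every pair. Alternatives were other scalings and filters, DESeq2 1.42.0, limma-voom (limma 3.58.1), a replicate block and leaving out each library. Figures used matplotlib 3.10.9.

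The members and lists were chosen with earlier results of these data known. Named genes were all members, the knockdown targets, the markers and, of each further list, up to 3 called genes of smallest adjusted p. Mbtps1, Rtcb, Atf4, Ddit3, Eif2ak4, Eif2ak1 and Eif2ak2 were named outside this rule, as were Rbm15b and AC163277.1, which overlap members. Promoters were RefSeq windows. Intron and protein sequences were not analysed here.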

Additional observations from a re-analysis of the deposited data

How the results depend on the processing

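Over the 13 alternatives, 17 of the 20 called members kept their call in each, and 10 of the 15 uncalled members stayed uncalled in each. Hyou1, Uggt1 and Syvn1 lost the call in some. Canx, Ganab, Pdia6, Derl1 and Derl2 gained one in some. Chaperones called higher numbered 1 in place of 2 with filterByExpr, RLE normalization, library totals without TMM and DESeq2, where Hyou1 lost its call, and 1 to 2 when 1 library was left out. Lectin cycle genes called lower numbered 5 in place of 3 with library totals, and ERAD genes called higher numbered 1 to 2 over the leave-one-out fits, with 2 without SAFB KD 1, where Derl1 was called. Changes of direction occurred in uncalled genes near 0. Edem2 was at -0.0095 with filterByExpr, -0.0081 with RLE, -0.0079 with DESeq2 and -0.039 with library totals. With library totals Hspa5 was at -0.021, Pdia4 at -0.0034 and Sel1l at -0.026. Leaving out 1 library gave Edem2 -0.055 to 0.030, Sel1l -0.025 to 0.050 and Pdia5 -0.079 to 0.034. The causes were not tested. The median of all genes moved by under 0.05 between scalings. Same-numbered libraries did not deviate together (r -0.0051, -0.0091 and -0.017). The sample titles give only a number, and whether such libraries shared a culture or preparation day cannot be told from these values. The replicate block left the call of all 35 members the same, with 6 higher and 14 lower. Levels per kb depend on the exon length used, and with the longest transcript in place of all exons the values moved. With 3 libraries a group, changes under about 0.1 on the log2 scale lay near the limit of detection.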
